A study of Mus musculus with 12 samples.

Results

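Neurotrophins and the GDNF family are secreted factors that keep young neurons alive and shape their axons. Here they are represented by 8 genes, taken by symbol from the 55359 genes counted in each library. The set holds the neurotrophin-3 gene Ntf3, the Trk receptors Ntrk2 and Ntrk3, their co-receptors Ngfr and Sort1, and, for the GDNF family, the signalling receptor Ret with its ligand-binding partners Gfra1 and Gfra2. The rule takes rows by gene name and uses no measured value, though the set was proposed with earlier results of these data known.

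Poly-A RNA was sequenced from the ventroposterior medial nucleus of mouse pups at postnatal day 0. This thalamic nucleus relays touch from the face to the barrel cortex. The 3 groups had 4 libraries each, and a library pooled the tissue of 5 brains, microdissected from sections of 300 µm, so that replicates are pools and not single pups. embWPC ALBSF is the upper lip territory of pups given the manipulation that the labels abbreviate as embWPC without spelling it out. Ctrl PMBSF is the whisker pad territory of control pups, and Ctrl ALBSF is their upper lip territory. Neither a strain nor an allele is named for any group in the labels used here.

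Neurotrophin-3 binds best to TrkC, the product of Ntrk3, while TrkB, the product of Ntrk2, is the receptor of the brain-derived factor encoded by Bdnf. The p75 receptor (Ngfr) binds all neurotrophins weakly and, together with sortilin (Sort1), their uncleaved precursors. Ligands of the GDNF family are held by a GFRα protein anchored in the membrane, which passes them to the tyrosine kinase Ret; GFRα1 prefers GDNF and GFRα2 prefers neurturin. In the thalamus Trk signalling is known for its part in neuron survival and in the growth of thalamocortical axons.

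embWPC ALBSF libraries held 31712820 to 33702453 counts, Ctrl PMBSF libraries 31921767 to 34512840, and Ctrl ALBSF libraries 28457046 to 31850727. Levels are given as CPM, which are counts divided by the TMM-scaled library total and set to a common scale. The summed CPM of 9 relay neuron genes, among them the vesicular glutamate transporter Slc17a6, was 2413 to 2739 in embWPC ALBSF, 2128 to 2470.0 in Ctrl PMBSF and 2403 to 2809 in Ctrl ALBSF. The GABAergic list summed to 8.96 to 37.97 CPM in embWPC ALBSF, 12.2 to 59.7 in Ctrl PMBSF and 6.35 to 64.9 in Ctrl ALBSF. Its Slc32a1 had no more than 8 counts a library, but Gad1 reached 445 and Npy 717. By the sign of the fitted difference, all 8 tested genes of this list were lower in embWPC ALBSF than in either control group, with 0 called. The Schwann cell list, with Foxd3 at 0 in all 12 libraries, stayed under 0.63 CPM. Its 1 tested gene, Erbb3, averaged 0.146 CPM in embWPC ALBSF, 0.116 in Ctrl PMBSF and 0.490 in Ctrl ALBSF. edgeR called Erbb3 lower in Ctrl PMBSF than in Ctrl ALBSF (1.62% of all genes), from only 1 to 6 counts a library against 10 to 18. Genes of the relay neuron list were thus present in every library, with Gbx2 and Lhx2 low at group means of 1.74 to 6.25 CPM. Whether the tissue was the labelled nucleus alone was not tested. Between Ctrl PMBSF and Ctrl ALBSF, edgeR called 3 of the 9 relay neuron genes (1 higher, 2 lower), against 1.62% of all genes tested. It called 0 of them in embWPC ALBSF against Ctrl ALBSF (0.0629% of all genes) and against Ctrl PMBSF (0.00571%). At an unadjusted p under 0.05 these 2 comparisons had 4 (9.22% of all genes) and 1 (9.47%). In bulk tissue, fewer cells of a type and less RNA per cell cannot be told apart.

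In CPM per kilobase of merged exons, the level of Gfra2 was 17.7 (range over the 12 libraries 13.5 to 22.3), and that of Ntf3 was 5.78 (2.03 to 11.3). Ntrk2 followed at 5.68 (5.02 to 6.40) and Sort1 at 2.66 (2.29 to 2.96). Ret stood at 1.25 (1.05 to 1.52), Ntrk3 at 0.675 (0.489 to 1.19), Gfra1 at 0.401 (0.158 to 0.675) and Ngfr at 0.0701 (0.0288 to 0.105). Gfra2 and Ngfr did not overlap their neighbours in this order, whereas the ranges of Ntf3 overlapped those of both Ntrk2 and Sort1, and Ret overlapped Ntrk3, which overlapped Gfra1. Per kilobase of the canonical transcript, a length chosen as an alternative after the annotation was read, Ntrk2 came first at 18.8 (16.6 to 21.1), with Gfra2 at 18.2 (13.8 to 22.9) and Ntf3 at 7.35. The order of these 3 genes therefore rests on the length used.

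The genes also differed in how much they varied between libraries. The highest library exceeded the lowest by 1.27-fold for Ntrk2, 1.30-fold for Sort1, 1.44-fold for Ret, 1.66-fold for Gfra2 and 2.44-fold for Ntrk3. For Gfra1 the ratio was 4.27 and for Ntf3 5.57. The ligand gene thus varied more than any other of the 7 genes that passed the count filter.

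**Figure D1:**
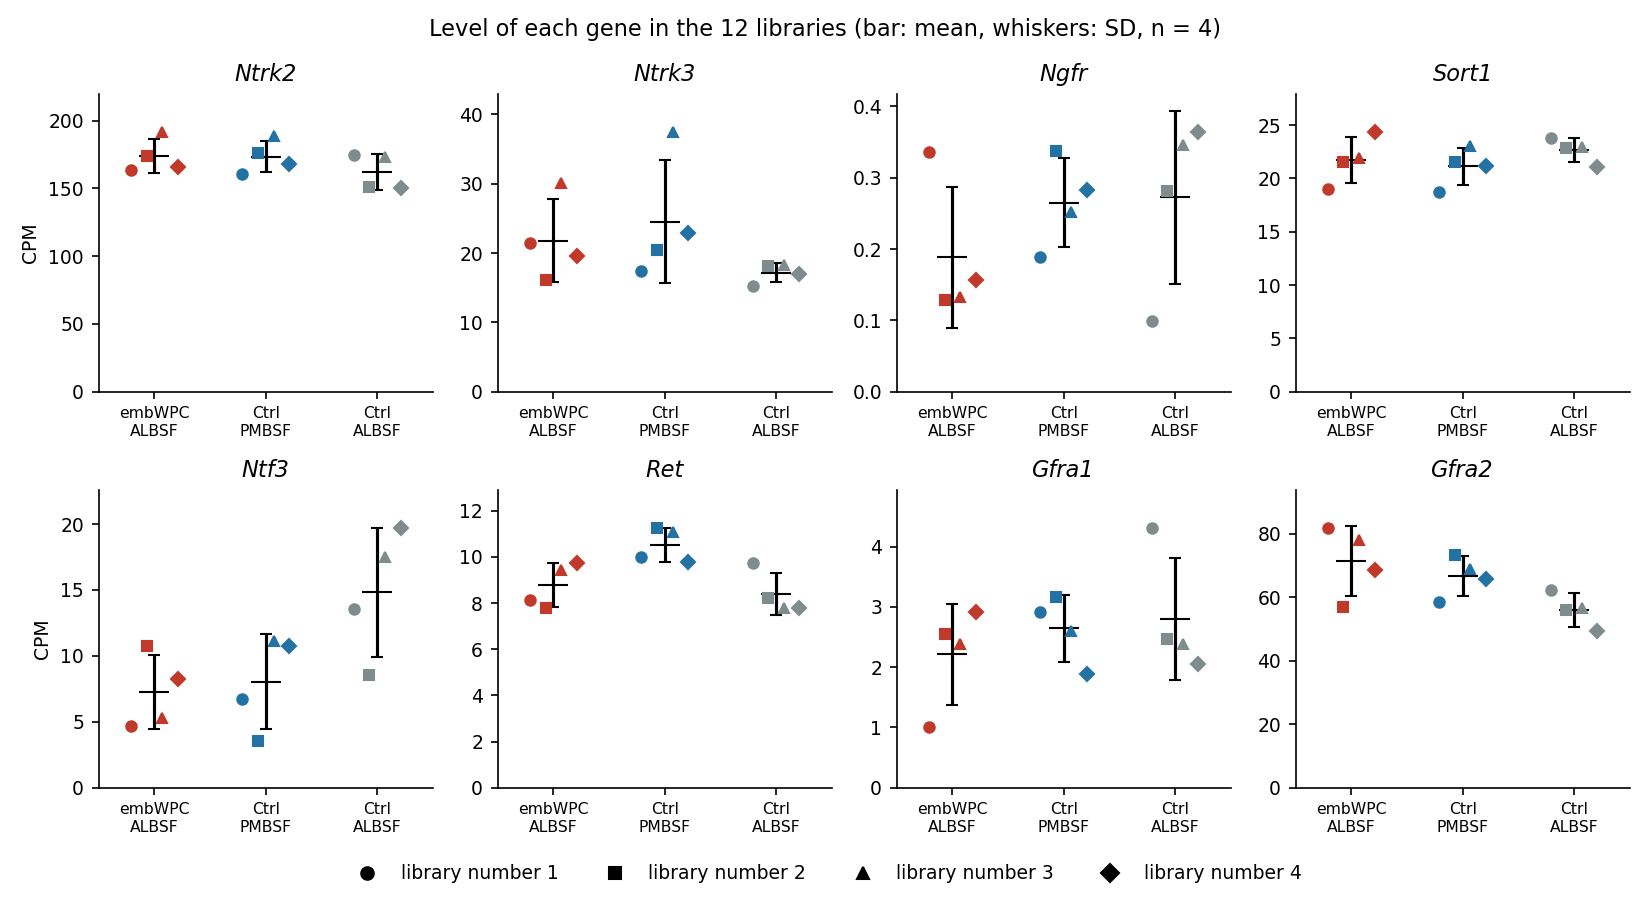
Each point is the CPM of a library (linear axis from 0), with its symbol giving the library number, in embWPC ALBSF, Ctrl PMBSF and Ctrl ALBSF; bars are means and whiskers the SD (n = 4). Ntf3 sat at 13.6 to 19.7 CPM in 3 of the 4 Ctrl ALBSF libraries and at or below 11.1 CPM in every library of the other groups, while Ntrk2 and Sort1 varied little.

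Groups were compared with edgeR's quasi-likelihood test over all 12 libraries, with Benjamini-Hochberg adjustment over the 17501 genes that passed the count filter. Genes with an adjusted p under 0.05 count as called. Of the 8 genes, 7 passed the filter and Ngfr did not. Both comparisons against Ctrl ALBSF use the same 4 libraries as their baseline, so their values are given side by side and are not independent of each other.

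The first comparison, Ctrl PMBSF against Ctrl ALBSF, sets the territories of whisker pad and upper lip against each other in control pups at birth. The test called 0 of the 7 genes, against 1.62% of all genes tested. DESeq2 and limma-voom with quality weights also called 0 of them, where over all genes they called 507 and 443. At an unadjusted p under 0.05, Ntrk3, Ret and Gfra2 were higher in Ctrl PMBSF and Ntf3 was lower, which is 4 of 7 where 11.8% of all genes passed. Ret alone had libraries that did not overlap between the territories, as did 8.28% of all genes. In this comparison, however, libraries of the same number varied together: the correlation of their deviations from the group means over genes was 0.198 to 0.396. Each Ctrl PMBSF library resembled the Ctrl ALBSF library of its own number best. With the number as a block, fitted on the 8 control libraries, 5.04% of 17000 genes were called, and among the 7 genes Ntf3 passed.

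The second, embWPC ALBSF against Ctrl ALBSF, sets the upper lip territory after the manipulation against the same territory in controls. edgeR called 0 of the 7 genes (0.0629% of all genes), and DESeq2 and voom called 0 too, where over all genes they called 175 and 75. At an unadjusted p under 0.05 Gfra2 was higher and Ntf3 lower in embWPC ALBSF, 2 of 7 against 9.22% of all genes, and no member had groups free of overlap (5.74% of all genes had). Between embWPC ALBSF and Ctrl PMBSF, edgeR, DESeq2 and voom called 0 of the 7 genes, and edgeR called 0.00571% of all genes. DESeq2 called 71 over all genes and voom 1. Only Ret, lower in embWPC ALBSF, reached an unadjusted p under 0.05 (9.47% of all genes did), and only Ret had libraries that did not overlap (4.73% of all genes). The numbers of the embWPC libraries did not pair with those of either control group.

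**Figure D2:**
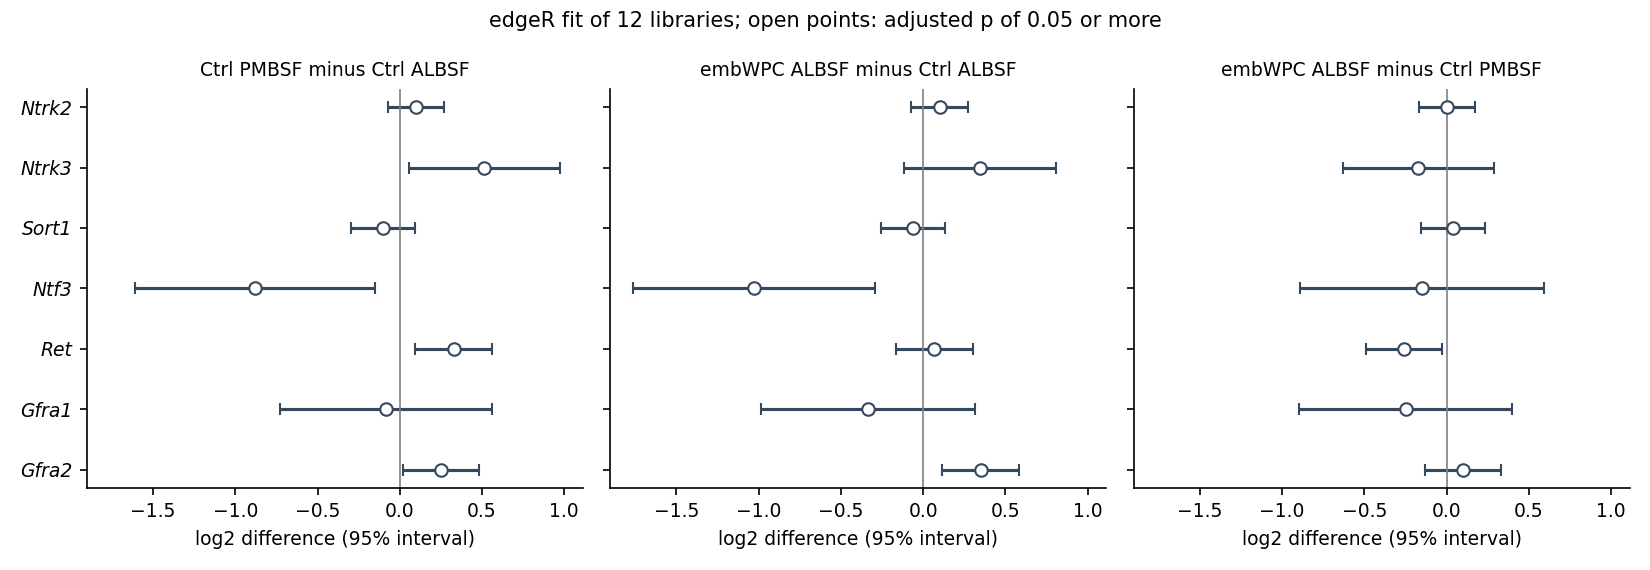
Points are log2 differences of the 7 tested genes in the 3 comparisons, fitted with edgeR over 12 libraries, with 95% intervals as whiskers; open points have an adjusted p of 0.05 or more. All points are open, and the Ntf3 intervals lie below 0 in both comparisons against Ctrl ALBSF.

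Ntf3 encodes neurotrophin-3, the preferred ligand of TrkC (ENSMUSG00000049107, chr6:126078375-126143873 in GRCm39, minus strand). Its CPM in libraries 1 to 4 was 4.66, 10.8, 5.33 and 8.23 in embWPC ALBSF, 6.75, 3.53, 11.1 and 10.8 in Ctrl PMBSF, with 13.6, 8.55, 17.5 and 19.7 in Ctrl ALBSF. Ctrl ALBSF held the 3 highest values of all 12 libraries, and its lowest library overlapped both other groups.

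Within the controls, Ntf3 was lower in Ctrl PMBSF than in the Ctrl ALBSF library of the same number in 4 of 4 pairs, with log2 ratios of -1.01, -1.28, -0.65 and -0.87. The library of number 2 was the lowest of both territories. Fitted with the replicate block, Ntf3 fell by 0.93 ± 0.11 on the log2 scale in Ctrl PMBSF (95% interval -1.16 to -0.70), and edgeR's adjusted p was 0.000414. Without the block the difference was -0.88 ± 0.34 (-1.61 to -0.15), a fold of 0.543, and the adjusted p was 0.295, so the size barely moved while its error shrank. The block was tried again without each number in turn, an alternative added after its result was seen; the difference then ran from -1.03 to -0.84 and its adjusted p from 0.000983 to 0.00839. DESeq2 with the same block gave -0.93, with an adjusted p of 6.81e-09.

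In the upper lip territory Ntf3 averaged 7.25 ± 2.82 CPM in embWPC ALBSF and 14.8 ± 4.88 CPM in Ctrl ALBSF (SD, n = 4 each), a log2 difference of -1.03 ± 0.34 (-1.76 to -0.29) with an edgeR adjusted p of 0.350. It did not pass, and its adjusted p over the 20 alternatives ran from 0.0449, when no count filter was applied, to 0.660. Set against Ctrl PMBSF at 8.05 ± 3.61 CPM, embWPC ALBSF differed by -0.15 ± 0.35 (-0.89 to 0.59; adjusted p = 0.923), an interval that allows a difference of either sign. With the meningeal covariate this difference was -0.71 (adjusted p = 0.623).

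**Figure D3:**
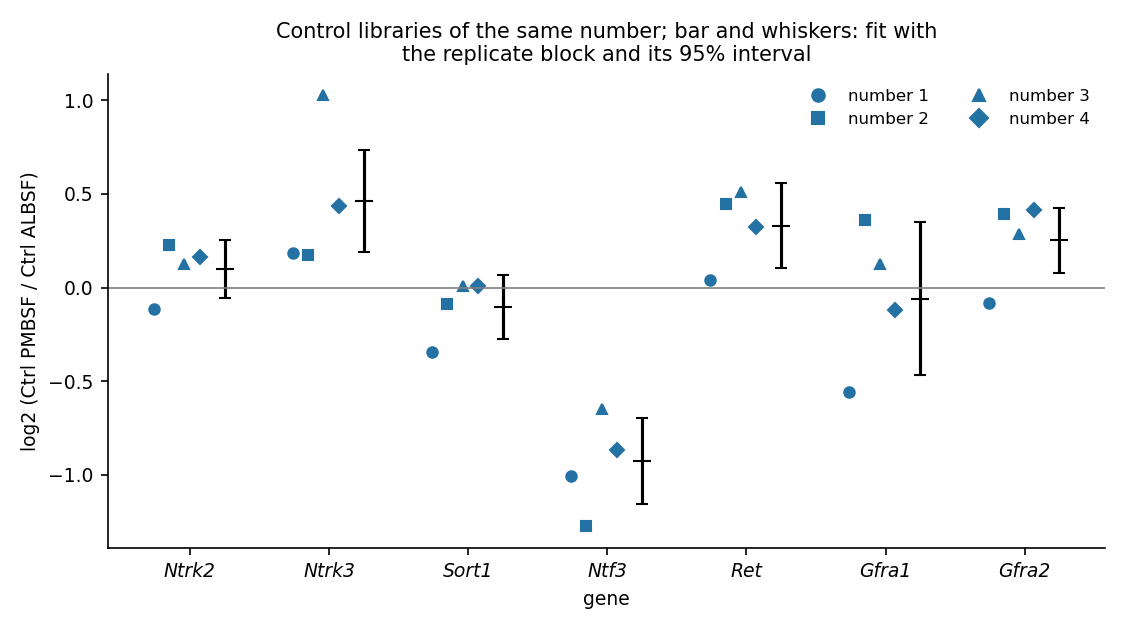
Points are log2 ratios of CPM between the Ctrl PMBSF and Ctrl ALBSF libraries of the same number, by gene; bars and whiskers are the fit with the replicate block and its 95% interval. All 4 Ntf3 points lie between -1.28 and -0.65, and the Ntf3 interval ends at -0.70.

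Genes of other cell types were measured in the same libraries. The 9 genes of the meningeal fibroblast list summed to 10.8 to 13.2 CPM in embWPC ALBSF, to 14.8, 96.7, 36.7 and 30.9 CPM in Ctrl PMBSF libraries 1 to 4, and to 17.7 to 19.9 CPM in Ctrl ALBSF. All 9 were higher in Ctrl PMBSF than in Ctrl ALBSF and lower in embWPC ALBSF than in either, by the sign of the fitted difference. edgeR called 0 of the 9 in the 3 comparisons. At an unadjusted p under 0.05, 6 were higher in Ctrl PMBSF than in Ctrl ALBSF (11.8% of all genes passed). In embWPC ALBSF 1 was lower than in Ctrl ALBSF (9.22% of all genes) and 8 were lower than in Ctrl PMBSF (9.47%). With the mean log2 CPM of these genes as a covariate, Ntf3 differed by -0.55 between the territories, against -0.88 without it. This was the smallest difference over the 20 alternatives, whose edgeR, DESeq2 and voom adjusted p ran from 0.000414 with the block to 0.636. The covariate was not fitted together with the block. In pair 1, where the sum was lower in Ctrl PMBSF than in Ctrl ALBSF, the log2 ratio of Ntf3 was -1.01. In pairs 2, 3 and 4, where the sum was higher in Ctrl PMBSF, it was -1.28, -0.65 and -0.87. What part meningeal content had in the Ntf3 difference was not tested.

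The astrocyte and radial glia list summed to 5216 to 10224 CPM in embWPC ALBSF, 6115 to 7813 in Ctrl PMBSF and 7624 to 11355 in Ctrl ALBSF, and the oligodendrocyte lineage list to 285 to 441 CPM in embWPC ALBSF, 314 to 338 in Ctrl PMBSF and 359 to 477 in Ctrl ALBSF. Endothelial and mural genes summed to 110 to 126 CPM in embWPC ALBSF, 92.3 to 141 in Ctrl PMBSF and 107 to 135 in Ctrl ALBSF. Microglial genes summed to 34.3 to 42.4 CPM in embWPC ALBSF, 33.3 to 74.1 in Ctrl PMBSF and 39.4 to 62.2 in Ctrl ALBSF. Between Ctrl PMBSF and Ctrl ALBSF, edgeR called 0 of 8 astrocyte and radial glia genes, 1 of 6 oligodendrocyte lineage genes (lower), 0 of 8 endothelial and mural genes and 0 of 6 microglial genes (1.62% of all genes). Unadjusted counts were 2 (1 higher, 1 lower), then 5, 3 and 1, all lower (11.8% of all genes). In the comparisons with embWPC ALBSF edgeR called 0 of these genes. Against Ctrl ALBSF the unadjusted counts were 1, 0, 0 and 1, all lower (9.22% of all genes). Against Ctrl PMBSF they were 1 lower, 4 higher, 3 higher and 1 lower (9.47%). The part of these cell types in the differences of the receptor and ligand genes was not tested.

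Ntrk3 encodes TrkC, the receptor of neurotrophin-3 (ENSMUSG00000059146, chr7:77825707-78387760, minus strand). Its CPM in libraries 1 to 4 was 21.5, 16.1, 30.1 and 19.5 in embWPC ALBSF, 17.4, 20.4, 37.4 and 22.9 in Ctrl PMBSF, with 15.3, 18.1, 18.3 and 16.9 in Ctrl ALBSF. Library 3 was the highest of each group, and its Ctrl PMBSF value stood well above the rest. The groups overlapped, with the control territories 0.51 ± 0.22 apart on the log2 scale (0.05 to 0.98; edgeR adjusted p = 0.344). Without library 3 of Ctrl PMBSF this became 0.24. Same-number ratios were positive in 4 of 4 pairs, at 0.19, 0.17, 1.03 and 0.44, and the blocked difference was 0.46 ± 0.12 with an edgeR adjusted p of 0.0562, which missed the threshold. That p ran from 0.0299 without number 1 to 0.221 without number 4, and DESeq2 with the block gave 0.0270. embWPC ALBSF differed from Ctrl ALBSF by 0.34 ± 0.22 (-0.12 to 0.80; adjusted p = 0.661) and from Ctrl PMBSF by -0.17 ± 0.21 (-0.63 to 0.29; adjusted p = 0.831).

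Ntrk2 encodes TrkB, the receptor of the factor from Bdnf, and had the highest CPM of the set (ENSMUSG00000055254, chr13:58954176-59281784, plus strand). Its values were 163, 174, 191 and 166 CPM in embWPC ALBSF, 161, 177, 188 and 168 in Ctrl PMBSF, with 174, 151, 173 and 150.2 in Ctrl ALBSF. The 3 groups overlapped throughout. The log2 difference was 0.10 ± 0.08 between Ctrl PMBSF and Ctrl ALBSF (-0.07 to 0.27; edgeR adjusted p = 0.704) and 0.10 ± 0.08 between embWPC ALBSF and Ctrl ALBSF (-0.07 to 0.27; 0.733). Either interval runs from a fold of about 0.95 to 1.21. embWPC ALBSF differed from Ctrl PMBSF by 0.00174 ± 0.0807 (-0.17 to 0.17; 0.997).

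Both Trk genes also make shorter receptors without a kinase domain, and the annotation lists 30 coding transcripts of Ntrk2, with coding lengths of 852 to 2463 bases, and 19 of Ntrk3. Counts per gene add these forms together, so nothing is shown here about their balance.

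Ngfr, the p75 receptor, was near the limit of detection (ENSMUSG00000000120, chr11:95459638-95478561, minus strand). It had 10, 4, 4 and 6 counts in embWPC ALBSF, 7, 11, 9 and 9 in Ctrl PMBSF, with 3, 8, 10 and 11 in Ctrl ALBSF. Its mean was 0.189 ± 0.099 CPM in embWPC ALBSF, 0.265 ± 0.062 in Ctrl PMBSF and 0.273 ± 0.121 in Ctrl ALBSF (SD, n = 4 each). No difference was detectable at this depth: the two-sided exact permutation p over 70 assignments was 0.886 for Ctrl PMBSF against Ctrl ALBSF, 0.429 for embWPC ALBSF against Ctrl ALBSF and 0.229 for embWPC ALBSF against Ctrl PMBSF, where 0.0286 is the smallest this design can give.

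Sort1 encodes sortilin, a sorting receptor that joins p75 in binding neurotrophin precursors (ENSMUSG00000068747, chr3:108191285-108268842, plus strand). It had 19.0, 21.6, 21.9 and 24.3 CPM in embWPC ALBSF, 18.8, 21.5, 23.0 and 21.2 in Ctrl PMBSF, with 23.8, 22.9, 22.9 and 21.1 in Ctrl ALBSF. The groups lay on top of each other. Its differences were -0.10 ± 0.09 between Ctrl PMBSF and Ctrl ALBSF (-0.30 to 0.09), -0.06 ± 0.09 between embWPC ALBSF and Ctrl ALBSF (-0.26 to 0.13) and 0.04 ± 0.09 between embWPC ALBSF and Ctrl PMBSF (-0.15 to 0.23), with edgeR adjusted p from 0.732 to 0.919.

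Ret encodes the tyrosine kinase that signals for all GDNF family ligands (ENSMUSG00000030110, chr6:118128706-118174769, minus strand). It had 8.15, 7.78, 9.43 and 9.75 CPM in embWPC ALBSF, 9.99, 11.2, 11.1 and 9.77 in Ctrl PMBSF, with 9.73, 8.23, 7.78 and 7.80 in Ctrl ALBSF. Every Ctrl PMBSF library lay above every library of the other groups, and the nearest values were 9.75 CPM in embWPC ALBSF library 4 and 9.77 in Ctrl PMBSF library 4. The log2 difference was 0.33 ± 0.11 between Ctrl PMBSF and Ctrl ALBSF (0.09 to 0.56), a fold of 1.25, with an edgeR adjusted p of 0.198, and 0.33 ± 0.10 with the block (adjusted p = 0.10002). embWPC ALBSF differed from Ctrl ALBSF by 0.07 ± 0.11 (-0.17 to 0.30; adjusted p = 0.871) and from Ctrl PMBSF by -0.26 ± 0.11 (-0.49 to -0.03; adjusted p = 0.492). None of these passed the adjusted threshold, and over the 20 alternatives the adjusted p of the territory difference ran from 0.0711 to 0.467. With the block and without number 1, a fit added later, Ret passed (0.42, adjusted p = 0.0311); without number 2, 3 or 4 it did not.

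Gfra2 encodes GFRα2, the neurturin-binding co-receptor of Ret (ENSMUSG00000022103, chr14:71127472-71217280, plus strand). It had 81.6, 57.0, 78.0 and 68.7 CPM in embWPC ALBSF, 58.6, 73.4, 68.7 and 65.8 in Ctrl PMBSF, with 62.1, 56.0, 56.5 and 49.3 in Ctrl ALBSF. Ctrl ALBSF had the lowest mean, and its highest library overlapped the lowest of each other group. embWPC ALBSF differed from Ctrl ALBSF by 0.35 ± 0.11 (0.12 to 0.58), a fold of 1.27, with the smallest unadjusted p of the set (0.00603) and an edgeR adjusted p of 0.299. Ctrl PMBSF differed from Ctrl ALBSF by 0.25 ± 0.11 (0.02 to 0.48; adjusted p = 0.364), with 3 of 4 pairs positive and a blocked adjusted p of 0.102; with the meningeal covariate this difference was 0.13. The block without number 1 called Gfra2 (0.36, adjusted p = 0.00596), and without number 2, 3 or 4 it did not. Against Ctrl PMBSF, embWPC ALBSF differed by 0.10 ± 0.11 (-0.13 to 0.33; adjusted p = 0.801), and by 0.29 with the meningeal covariate (adjusted p = 0.457).

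Gfra1 encodes GFRα1, the co-receptor that prefers GDNF (ENSMUSG00000025089, chr19:58223212-58444346, minus strand). Its 1.01, 2.55, 2.38 and 2.91 CPM in embWPC ALBSF stood beside 2.92, 3.16, 2.603 and 1.88 in Ctrl PMBSF, with 4.30, 2.46, 2.39 and 2.05 in Ctrl ALBSF. Library 1 was the lowest of embWPC ALBSF and the highest of Ctrl ALBSF, and the groups overlapped. The differences were -0.08 ± 0.30 between Ctrl PMBSF and Ctrl ALBSF (-0.73 to 0.56), -0.33 ± 0.30 between embWPC ALBSF and Ctrl ALBSF (-0.98 to 0.32) and -0.25 ± 0.30 between embWPC ALBSF and Ctrl PMBSF (-0.90 to 0.40), with edgeR adjusted p from 0.762 to 0.954. At 30 to 130 counts a library, the widest of these intervals, for embWPC ALBSF against Ctrl ALBSF, covers folds from 0.506 to 1.25.

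Strand settings of the authors' counting are not given in the sources used here, and exons of some members overlap long noncoding RNAs on the opposite strand. The overlap spans 388 bases of Ntrk3, 213 of Ntf3, 310 of Gfra2, up to 1760 of Sort1 and up to 1048 of Gfra1. The RNAs over Ntrk3 and Sort1, and Gm16277 over Gfra1, are counted as genes of their own, while those over Ntf3 and Gfra2 are not. Counts of these members may therefore gain or lose reads at the overlap, while Ntrk2, Ngfr and Ret have no such overlap.

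Across the 12 libraries the log2 CPM of Ntf3 and Gfra2 had a Pearson r of -0.77, the most negative of the 21 pairs of tested members, and Ntrk2 with Ntrk3 had the highest, 0.63. These are descriptions over 12 libraries that include the group differences. By likeness of pattern over the same libraries, among 12644 genes, Fhip1a (r = 0.90) and Nsmf (0.90) came closest to Gfra2. Cnr1, the cannabinoid receptor gene (0.91), Pard3 (0.91) and Iqsec3 (0.90) came closest to Ret. These genes were picked as the highest of 12644 values over 12 libraries. Such a choice can give a high r among unrelated genes, and no shared regulation was tested.

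The wider pathway was described by 8 lists with 83 other genes, of which 76 were tested. Between Ctrl PMBSF and Ctrl ALBSF, 2 of the 76 were called (1.62% of all genes), and at an unadjusted p under 0.05 there were 7 higher and 13 lower (11.8% of all genes); their median log2 difference was -0.11, against 0.00431 over all genes tested. In embWPC ALBSF against Ctrl ALBSF edgeR called 0 (0.0629% of all genes), with 7 higher and 9 lower unadjusted (9.22% of all genes). The median was 0.00226, against -0.01 over all genes. DESeq2 and voom called 3 each, namely Sorcs3, Dusp4 and Etv1, where over all genes they called 175 and 75. In embWPC ALBSF against Ctrl PMBSF edgeR and voom called 0 and DESeq2 called 1. Over all genes edgeR and voom called 1 each there and DESeq2 71. Unadjusted, 11 were higher and 4 lower (9.47% of all genes), and the median was 0.06, against -0.02 over all genes.

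Both called genes were among the 16 genes that Trk or Ret signalling can induce. Dusp4, which encodes a phosphatase that switches off the kinases ERK, had 15.5, 19.2, 15.5 and 13.4 CPM in embWPC ALBSF, 13.5, 22.6, 15.8 and 18.025 in Ctrl PMBSF, with 9.76, 10.1, 6.99 and 8.10 in Ctrl ALBSF. Every Ctrl ALBSF library lay below every library of the other groups. Of all genes, 8.28% had no overlap between Ctrl PMBSF and Ctrl ALBSF, and 5.74% between embWPC ALBSF and Ctrl ALBSF. It rose in Ctrl PMBSF over Ctrl ALBSF by 1.00 ± 0.16 (0.65 to 1.35; edgeR adjusted p = 0.00555), and embWPC ALBSF differed from Ctrl ALBSF by 0.86 ± 0.16 (0.51 to 1.21; adjusted p = 0.0707). With the meningeal covariate the first difference was 0.69 with an adjusted p of 0.0643.

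Etv1 encodes a transcription factor that in sensory neurons of the mouse depends on neurotrophin-3. It had 12.1, 12.8, 16.7 and 16.9 CPM in embWPC ALBSF, 12.8, 14.9, 15.2 and 15.3 in Ctrl PMBSF, with 19.7, 30.4, 22.1 and 24.7 in Ctrl ALBSF. Ctrl ALBSF lay above all 8 other libraries, with the same shares of all genes free of overlap as given for Dusp4. Etv1 fell in Ctrl PMBSF by 0.74 ± 0.14 (-1.04 to -0.43; edgeR adjusted p = 0.0151), and embWPC ALBSF differed from Ctrl ALBSF by -0.72 ± 0.14 (-1.02 to -0.42; adjusted p = 0.0707). The adjusted p of the territory difference was 0.0610 with the meningeal covariate and 0.0749 without TMM scaling, so 2 of the 20 alternatives ended that call. The median of the whole list, 4 higher and 12 lower, was -0.23 in Ctrl PMBSF against Ctrl ALBSF, and 0.02 in embWPC ALBSF against Ctrl ALBSF.

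Among the neurotrophins, Bdnf was the other ligand tested. It had 5.94, 13.2, 5.86 and 14.9 CPM in embWPC ALBSF, 12.2, 8.01, 13.7 and 10.05 in Ctrl PMBSF, with 17.0, 9.53, 17.9 and 14.6 in Ctrl ALBSF, with overlap between all groups. Its difference between the territories was -0.43 ± 0.29 without the block (edgeR adjusted p = 0.630). With the block it fell by 0.42 ± 0.08 in Ctrl PMBSF (adjusted p = 0.0154), lower in 4 of 4 pairs, but it was not called when number 3 or number 4 was left out of the blocked fit. Ntf5, with 0 to 7 counts a library, did not pass the count filter.

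Of the Trk, p75 and sortilin receptor list, 9 of 11 genes were tested and 0 called by edgeR in the 3 comparisons. Sorcs3, a sortilin relative, had the smallest p, with 1.85 to 3.75 CPM in embWPC ALBSF, 2.42 to 4.75 in Ctrl PMBSF and 3.90 to 7.75 in Ctrl ALBSF. Its difference between embWPC ALBSF and Ctrl ALBSF was -1.21 ± 0.27 (-1.79 to -0.63), with adjusted p of 0.107 by edgeR, 0.00218 by DESeq2 and 0.0409 by voom. The groups of that comparison did not overlap (3.75 against 3.90 CPM at the nearest), as was so for 5.74% of all genes. Sorcs3 was named for its small p there, so this is no separate support.

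For the GDNF family, 3 of 5 ligand genes and 7 of 8 receptor genes were tested, and edgeR called 0 of either. Gdnf itself had 0 to 3 counts a library and Pspn 1 to 9. Artn, the ligand with the smallest p, averaged 0.938 ± 0.203 CPM in embWPC ALBSF, 0.858 ± 0.172 in Ctrl PMBSF and 0.780 ± 0.404 in Ctrl ALBSF. Sdc3, a syndecan that can bind GDNF, had 347 to 461 CPM in embWPC ALBSF, 314 to 343 in Ctrl PMBSF and 409 to 433 in Ctrl ALBSF. Its Ctrl PMBSF libraries lay below all other libraries and differed from Ctrl ALBSF by -0.36 ± 0.09 (edgeR adjusted p = 0.0530). Of all genes, 8.28% had no overlap between Ctrl PMBSF and Ctrl ALBSF, and 4.73% between embWPC ALBSF and Ctrl PMBSF. With the block its adjusted p was 0.0161.

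The remaining lists held adaptors of Trk and Ret (23 of 23 tested), partners of p75 (15 of 15) and proteases that cut neurotrophin precursors (8 of 9), and edgeR called 0 of them in the 3 comparisons. The adaptor Dok5 had the smallest p of its list, with a difference of -0.30 ± 0.07 between embWPC ALBSF and Ctrl PMBSF (edgeR adjusted p = 0.264). Traf6, which docks on p75, differed by 0.32 ± 0.10 in the same comparison (adjusted p = 0.364). Mmp9, a protease able to cleave the precursor of Bdnf, averaged 5.16 CPM in embWPC ALBSF, 10.2 in Ctrl PMBSF and 6.37 in Ctrl ALBSF, a difference of -0.97 ± 0.22 from Ctrl PMBSF (edgeR adjusted p = 0.240; 0.0101 by DESeq2).

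With the replicate block, 12 of the 76 other pathway genes were called between Ctrl PMBSF and Ctrl ALBSF, against 5.04% of all genes. Higher in Ctrl PMBSF were Dusp4, Dusp6, Mmp9, Pcsk5, Nradd and Dok5. Lower were Etv1, Bdnf, Nptx2, Pcsk1, Gab1 and Sdc3. Nptx2, an activity-dependent pentraxin, fell by 0.83 ± 0.16 (adjusted p = 0.0103) and Nradd, a relative of p75, rose by 0.40 ± 0.07 (adjusted p = 0.00865). Leaving out a number brought the count to 11 without number 1, 6 without number 2, 4 without number 3 and 3 without number 4. The share of all genes called in these fits was not tallied, so these counts have no background beside them. Dusp4 and Etv1 were called in all 4 of these fits, Mmp9 and Sdc3 in 3, Nptx2, Nradd and Bdnf in 2, Dusp6, Pcsk1 and Pcsk5 in 1, and Dok5 and Gab1 in none.

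**Figure D4:**
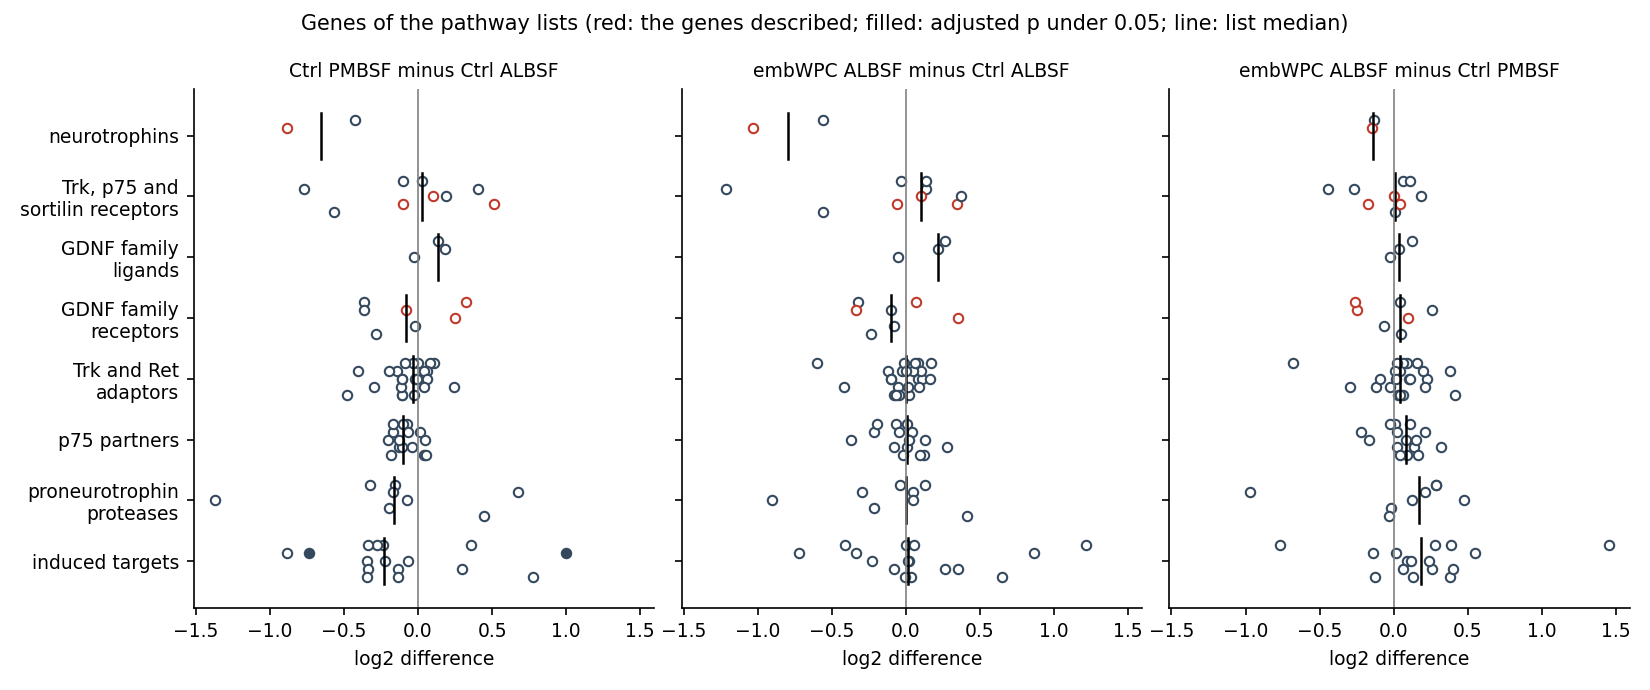
Log2 differences of the genes in the 8 pathway lists, 1 panel per comparison, with a vertical line at each list's median; red points are the members and filled points have an adjusted p under 0.05. Filled points are Dusp4 at 1.00 and Etv1 at -0.74 between Ctrl PMBSF and Ctrl ALBSF, and the 2 panels with embWPC ALBSF hold none.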

How the data were processed

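The deposited files hold raw counts per Ensembl gene, 1 file a library. The authors aligned paired reads of 150 nucleotides to GRCm39 (STAR 2.7.9a) and counted them on Ensembl release 104 genes (featureCounts, Subread 2.0.1), per the design text and the submitters' processing notes, where mm10 is listed as well. Whether counting used strand, multiply aligned reads or pairs is not given in the sources used here. Symbols, positions and lengths came from GENCODE mouse release 39, which matched 54749 of 55359 genes. The members and lists were chosen with earlier results of these data known.

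Counts were fitted with edgeR 4.0.16 (R 4.3.3, limma 3.58.1) on all 12 libraries by group, after filterByExpr and TMM; the biological coefficient of variation was 15.8%. Errors after ± are standard errors (SE) for log2 differences and SD for CPM. DESeq2 1.42.0, voom, other scalings, no filter, 8 libraries, a replicate block, a meningeal covariate and leaving out each library were the alternatives. The edgeR fit by group was run on simulated counts of independent libraries with the same dispersion for every gene. That simulation held no pairing, so it did not test the replicate block. Replicate numbers come from the labels, which do not say what a number marks; the control pairs correlated at 0.198 to 0.396, and pairs with embWPC ALBSF at -0.15 to 0.05. No library was entered more than once (chi-square per degree of freedom at least 12.6).

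All members were named, and of each pathway list the called genes or else the one with the smallest p. Genes named because the block called them were chosen after their values were seen. For likeness, the 2 members with the smallest p were used, with a prior count of 2 for log2 CPM. Each library is a pool, so p-values measure the spread between pools. Results of some genes that these rules take are not reported here.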

Additional observations from a re-analysis of the deposited data

Results flagged for a closer look

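Of the 24 sets of 4 libraries examined (8 genes in 3 groups), 1 held a library far from the others by Dixon's criterion, which chance alone passes in about 1 in 20 sets. Ngfr stood at 0.336 CPM in embWPC ALBSF library 1, from 10 counts, while the other libraries of that group had 0.129 to 0.157 CPM from 4 to 6 counts. The gap took 0.864 of the range of the group, above the critical value for 4 libraries.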

How the results depend on the processing

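Each result was refitted under 20 alternatives. With the replicate block, 1 member (Ntf3) and 12 other pathway genes were called between Ctrl PMBSF and Ctrl ALBSF; without number 1, 2, 3 or 4 the block called 1 to 4 members, Ntf3 each time, and 3 to 11 other genes, and DESeq2 with the block 2 and 12. These block fits by number and by DESeq2 were added after the data were seen. The share of all genes that they called was not tallied, so their counts cannot be set against a background. The block called 0 members in the comparisons with embWPC ALBSF, whose numbers do not pair. Without a count filter, 1 member (Ntf3) was called in embWPC ALBSF against Ctrl ALBSF. Other pathway genes called between the territories numbered 2, but 5 with DESeq2, 6 with voom, 1 with library totals alone, 1 with the meningeal covariate, 3 without a filter or with the 8 libraries compared, and 2 to 3 when a library was left out. In embWPC ALBSF against Ctrl ALBSF they numbered 0, but 3 with DESeq2, voom or no filter, 1 with the covariate and 0 to 1 when a library was left out (1 without Ctrl ALBSF 1 or Ctrl PMBSF 1). In embWPC ALBSF against Ctrl PMBSF 1 was called by DESeq2 or without a filter. Leaving out a library called 0 members in any comparison. Over all genes, 284 were called between the territories, 507 by DESeq2, 443 by voom, 857 with the block and 174 with the covariate; leaving out a library gave 127 to 282, with 127, 155 and 160 without Ctrl ALBSF 3, 4 and 2 and 163 without Ctrl PMBSF 2. In embWPC ALBSF against Ctrl ALBSF the counts were 11 with edgeR, 175 with DESeq2, 75 with voom, 121 without a filter, 27 with the covariate, 1 with the block and 1 to 37 when a library was left out (1 without Ctrl ALBSF 3 or embWPC ALBSF 3, 37 without Ctrl PMBSF 1). In embWPC ALBSF against Ctrl PMBSF they were 1 with edgeR, 71 with DESeq2, 72 without a filter and 1 to 3 when a library was left out.

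Signs turned only for small differences. Gfra1 between the territories was 0.0036 with voom, 0.00278 with library totals and -0.21 to 0.20 when a library was left out; with the block it was 0.12 without number 1. Between embWPC ALBSF and Ctrl PMBSF, library totals gave -0.0699 for Ntrk2 and -0.0199 for Sort1, and the covariate gave 0.0079 for Ntrk3. Leaving out a library gave -0.0469 to 0.0456 for Ntrk2, -0.0102 to 0.0988 for Sort1, -0.37 to 0.11 for Ntrk3 and -0.40 to 0.0526 for Ntf3. The cause was not tested. Library totals moved the median of all genes to 0.10 between the territories. Ngfr had 3 to 11 counts a library.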
